A study of Rattus norvegicus with 8 samples.

Results

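The genes described here encode the proteins of the cytosolic ribosome, measured in rat forelimb muscle. A probe set is a group of array probes that reads 1 transcript. The members were all probe sets that carry a single symbol in the platform's annotation, this symbol being Rpsa, Rplp0 or an Rpl or Rps name without kinases, pseudogenes or LOC entries. This gave 55 probe sets of 48 genes, out of 31042 tested probe sets and 14217 genes. Of the 48 genes, 33 belong to the large subunit (37 probe sets) and 15 to the small subunit (18 probe sets). A further 36 probe sets carried several symbols, at least 1 of them of this family, and were not members. A gene with several probe sets is represented by the one of highest mean level unless stated otherwise.

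Male Sprague-Dawley rats aged 6 weeks gave the muscle, the epitrochlearis, a thin fast-twitch muscle of the forelimb. All rats had practised swimming for 3 days, had been given 5 g of food on the day before, and swam for 2 h. Each then got a 44 kJ meal with carbohydrate (about 15% of the daily energy), which held in addition an amino acid mixture in 4 rats (the AAM group) and whey protein hydrolysate, enzymatically cut milk whey protein, in the other 4 (the WPH group). The comparison asks whether the form of the protein matters when its composition is matched, and no resting or unfed rats were analysed here. The time of sampling after the meal was not used here. Of 12 listed muscle fibre markers, 11 were measured, with mean deposited levels from 11.3 to 14.2, Acta1 and Ckm among them. In whole muscle, a lower value from fewer cells of a type and one from less RNA per cell cannot be told apart.

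A ribosome is built from ribosomal RNA and a single copy of most ribosomal proteins, so these proteins are needed in matched amounts. Their mRNAs typically start with a C followed by a run of pyrimidines, the 5′ terminal oligopyrimidine (TOP) tract. This tract is bound by Larp1 when the kinase mTORC1 is inactive, and feeding or growth signals release it for translation. That control acts on translation and on the stability of the mRNA, and an array reads only mRNA abundance. In striated muscle, Rpl3l can take the place of Rpl3 in the large subunit.

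Start sites were available for 43 of the 48 genes from RefSeq (assembly GRCr8). The windows shown run from 10 bases before the annotated start to 20 bases from it, 5′ to 3′, and capitals mark the longest run of C and T that begins with a C within 10 bases of the start and has 5 or more bases. They show large and small subunit genes with such a run at or near the start, then Rpl3l, whose run of 8 bases begins 10 bases after the start, and its counterpart Rpl3 and the paralog Rps27l, in which no such run was found.
Rpl27a, chr1:172974563-172974592, plus strand: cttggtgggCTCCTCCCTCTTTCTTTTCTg
Rpl35, chr3:43165902-43165931, minus strand: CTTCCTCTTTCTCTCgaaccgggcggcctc
Rpl19, chr10:83519054-83519083, plus strand: ccagcaagCTCTTTCCTTTCgctgctgcgt
Rpl37a, chr9:81748081-81748110, plus strand: cccgttgcgtCTCTTCCTCTTCgggcttgg
Rps23, chr2:23814507-23814536, plus strand: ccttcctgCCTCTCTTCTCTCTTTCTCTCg
Rps15, chr7:10068096-10068125, minus strand: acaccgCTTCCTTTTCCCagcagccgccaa
Rplp0, chr12:46718371-46718400, minus strand: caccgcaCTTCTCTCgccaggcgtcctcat
Rpl3, chr7:113507971-113508000, minus strand: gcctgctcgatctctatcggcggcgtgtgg
Rpl3l, chr10:14258436-14258465, plus strand: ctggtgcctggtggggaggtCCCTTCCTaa
Rps27l, chr8:76443648-76443677, plus strand: ttcatttgtcattatttgtggtgtccagag

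On the sense strand, as printed, such a run was found in 29 of the 43 members (67.4%), against 28.8% of 27457 promoters in the table. A run of 8 or more bases was found in 20 members (46.5%), against 7.33% of all promoters. A C exactly at the annotated start with 4 or more pyrimidines after it was found in 12 members (27.9%), against 2.63%. The longest run was 21 bases, in Rps23. In the window of 300 bases around the start, CCGGAAG on either strand was found in 10 members (23.3%) against 9.22% of all promoters, AAGATGGC in 4 (9.3%) against 3.44%, and TATAAA in 6 (14%) against 14.3%. These are matches of letters in 1 annotated window per gene and say nothing of use in this muscle.

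Not a single ribosomal protein gene passed the test between the 2 meals. By limma with Benjamini-Hochberg adjustment over all probe sets, 0 of 55 member probe sets had an adjusted p below 0.05, where 0% of all 31042 were called. At an unadjusted p below 0.05 there were 2 of 55 members, or 3.64%, against 3.58% of all probe sets. These were Rps27l and the second probe set of Rpl7, both higher after WPH, where 1.71% of all probe sets were higher and 1.86% lower by this rule. The smallest adjusted p among the members was 0.9998 with limma. The deposited values are on a log2-like scale, but arrays differ on it by minute amounts that cannot be read as fold changes. The SD over the 8 arrays had a median of 1.28e-06 for the member probe sets and 3.69e-06 for all, and 42 of the 55 members lay below the latter. Sizes are therefore given as standardized differences, WPH minus AAM in units of the SD within groups, and array values as z-scores, the deviation from the gene's own mean in SDs over the 8 arrays.

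Most members nevertheless had a lower mean after WPH. In the large subunit 28 of 33 genes were lower and 5 higher, with a median standardized difference of -0.34. In the small subunit 12 of 15 were lower and 3 higher, with a median of -0.47. Over all 14217 genes 7661 were lower and 6556 higher, with a median of -0.06. The members move together across arrays, as described next, so these counts are not separate observations. The mean z-score of the large subunit was 0.206 ± 0.790 after AAM and -0.206 ± 0.542 after WPH, and that of the small subunit 0.146 ± 0.624 and -0.146 ± 0.530 (SD, n = 4 each). For both subunits the difference was smaller than the spread between arrays of 1 meal. Quantile normalization left 11 of the 48 genes to fit, 6 large and 5 small subunit genes. Over these the difference was 0.32 and 0.06, where all members had -0.41 and -0.29. The gene sets are unlike, so these values do not show what normalization alone changes. All named genes left but Rps3 had a mean deposited level at or below 10. In the main fit, members at or below that level had -0.25 (large subunit) and 0.62 (small subunit). The number of large subunit genes higher after WPH was 9 without AAM replicate 1, 8 without AAM replicate 2, 3 without AAM replicate 3, 13 without AAM replicate 4, 9 without WPH replicate 2 and 11 without WPH replicate 4. For the small subunit it was 5 without AAM replicate 1 or AAM replicate 4 and 6 without WPH replicate 4, and 2 without AAM replicate 3 or WPH replicate 1. Without AAM replicate 3 the difference in mean z-score went from -0.41 to -0.85 for the large subunit and from -0.29 to -0.64 for the small subunit, and 0 member probe sets were called.

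**Figure D1:**
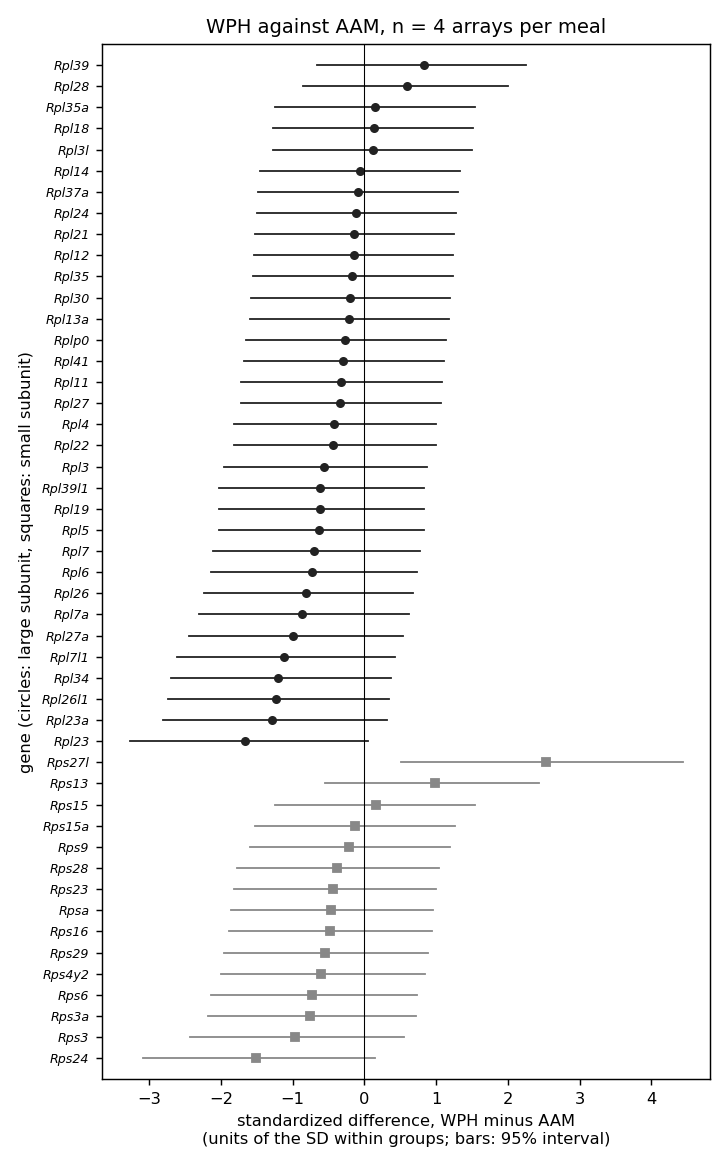
Standardized difference, WPH minus AAM, in units of the SD within groups, for each of the 48 genes (n = 4 arrays per meal). Circles are large subunit genes, squares small subunit genes, and bars 95% intervals. Most points lie left of 0 with intervals that cross it, and only the interval of Rps27l (0.51 to 4.44) does not.

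What most of these genes shared was their pattern over the 8 arrays. The 48 genes fell into 39 with a mean deposited level above 10 and 9 at or below it. Closest to this bound were Rpl3 above it, at 10.8, and Rps27l below it, at 8.00. A level depends on the probes as well as on the mRNA, so it separates bright from dim probe sets and does not rank genes. The 27 bright large subunit genes had mean z-scores of 0.67, 0.30, -1.12 and 1.04 in AAM replicates 1 to 4 and 0.73, -0.65, -0.11 and -0.87 in WPH replicates 1 to 4. The 12 bright small subunit genes had 0.63, 0.48, -1.09 and 1.02 after AAM and 0.73, -0.68, -0.02 and -1.07 after WPH. Both subunits were thus high on AAM replicates 1 and 4 and WPH replicate 1, and low on AAM replicate 3 and WPH replicates 2 and 4. High and low arrays occurred in both meals.

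Across all 1128 pairs of the 48 members, the median Pearson correlation over 8 arrays was 0.62 (quartiles -0.01 and 0.80), and 74.6% of pairs were positive. Over pairs of the 39 bright members, the median was 0.743 (quartiles 0.596 and 0.851), and 95.1% of 741 pairs were positive. Between bright large and bright small subunit genes the median was 0.741. Over pairs of the 928 other genes above level 10 it was 0.008, with 50.5% of pairs positive. Among the 9 dim members it was -0.033. These correlations are a description over 8 arrays that share their hybridization and scaling, and the bound at level 10 was set after the values were seen. Without each array in turn, the median of the bright members stayed between 0.708 (without AAM replicate 3) and 0.782 (without WPH replicate 3). The 36 probe sets with several symbols, which were not members, had mean z-scores of 0.56, 0.59, -1.25 and 0.70 after AAM and 0.79, -0.34, -0.11 and -0.93 after WPH, so the same 4 arrays were above 0.

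**Figure D2:**
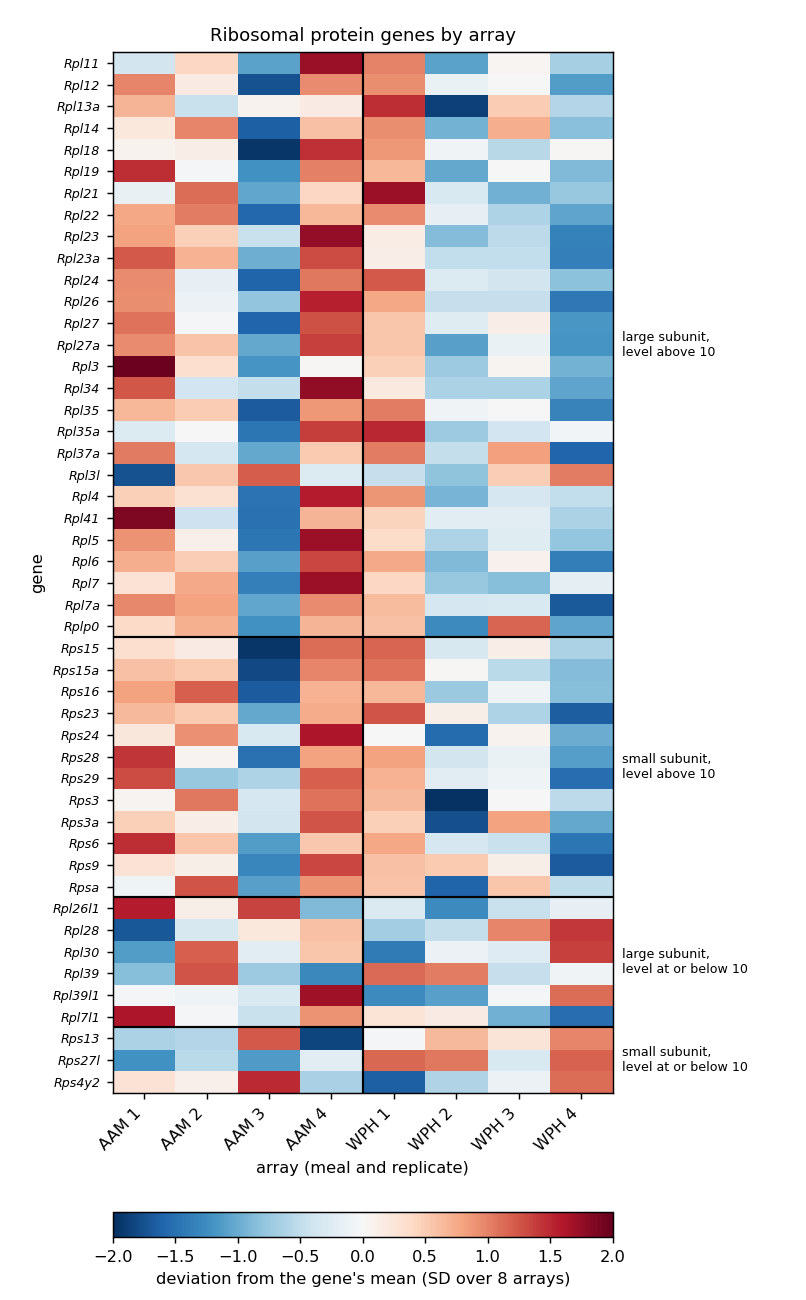
Deviation of each of the 48 genes (rows) from its own mean, in SDs over the 8 arrays (columns), with AAM left and WPH right of the vertical line. Bright genes of both subunits are mostly red on AAM replicate 4 and WPH replicate 1 and blue on AAM replicate 3 and WPH replicate 4, with Rpl3l in the opposite colours, and the 9 dim genes vary (median pairwise r -0.033).

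AAM replicate 3 was the lowest of the 8 arrays for 20 of the 48 genes (41.7%), against 18.6% of all genes, and AAM replicate 4 the highest for 17 (35.4%), against 13.3%. The next most frequent lowest arrays were WPH replicate 4, for 13 genes, and WPH replicate 2, for 8, with Rpl11 tied between AAM replicate 3 and WPH replicate 2. Genes lowest on WPH replicate 4 included Rps6, Rps23, Rps29, Rpl23, Rpl23a and Rpl7a. Those lowest on WPH replicate 2 included Rps3, Rps3a, Rps24, Rpsa, Rplp0 and Rpl13a.

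By role, the core of the pattern can be read from single genes. Rpl6 and Rpl27a, both of the large subunit's body, were closest to the mean of the other bright members (r = 0.984 and 0.973 over 8 arrays). Rpl6 had z-scores of 0.72, 0.49, -1.09 and 1.33 after AAM and 0.75, -0.89, 0.08 and -1.39 after WPH. Rpl5 and Rpl11 bind the 5S RNA and, when unassembled, inhibit Mdm2. Rpl5 had 0.90, 0.10, -1.44 and 1.71 after AAM and 0.37, -0.62, -0.25 and -0.78 after WPH, and Rpl11 had -0.36, 0.41, -1.07 and 1.73 and then 0.99, -1.07, 0.04 and -0.67. Both were highest on AAM replicate 4, and their groups overlapped, with standardized differences of -0.63 (95% interval -2.03 to 0.83) and -0.33 (-1.72 to 1.08). Rplp0, the base of the stalk that recruits translation factors, had 0.39, 0.71, -1.21 and 0.68 after AAM and 0.59, -1.27, 1.16 and -1.06 after WPH (-0.27, -1.65 to 1.14). It was low on 1 AAM and 2 WPH arrays, and its deposited level was 12.3.

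The large subunit genes with the lowest values after WPH were Rpl23 (-1.66), Rpl23a (-1.29), Rpl26l1 (-1.23) and Rpl34 (-1.20). Rpl23a, at the exit of the peptide tunnel where signal recognition particle docks, had z-scores of 1.22, 0.69, -0.97 and 1.30 after AAM and 0.14, -0.50, -0.50 and -1.37 after WPH. Rpl23 had 0.81, 0.48, -0.45 and 1.75 after AAM and 0.15, -0.86, -0.53 and -1.35 after WPH. In both genes 3 of the 4 AAM arrays lay above all WPH arrays and AAM replicate 3 lay among them. Rpl23, read at level 11.9, differed by -6.65e-07 ± 2.84e-07 on the deposited scale (SE, n = 4 for each meal), with an exact two-sided permutation p of 0.0571, where the smallest possible is 0.0286, and a 95% interval of -3.27 to 0.05. Without AAM replicate 3 the standardized difference was -2.60 for Rpl23 and -3.10 for Rpl23a. That of Rpl26l1, a dim probe set, was -2.48 without AAM replicate 4 and had the other sign, 0.94, with quantile normalization. The highest large subunit values were those of Rpl39, which lines the peptide tunnel (0.83), Rpl28 (0.60), Rpl35a (0.15) and Rpl18 (0.13), all with intervals across 0. Each of the 4 changed sign under at least 1 alternative. Rpl39 was 2.11 without AAM replicate 2 and -0.10 with quantile normalization, Rpl28 was between 0.17 (without AAM replicate 1) and 0.95 (without WPH replicate 1) and 1.65 with the replicate block, and without AAM replicate 3 Rpl35a was -0.30 and Rpl18 -0.72. With median centring all 4 were below 0, from -0.52 to -0.47.

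In the small subunit, Rps24 (-1.51), Rps3 (-0.97), Rps3a (-0.76) and Rps6 (-0.73) were lowest after WPH. Rps6 is the substrate of the S6 kinases, which mTORC1 activates after feeding. Its z-scores were 1.47, 0.56, -1.12 and 0.54 after AAM and 0.77, -0.33, -0.45 and -1.44 after WPH, so the groups overlapped (95% interval -2.14 to 0.74). Rps3, which lies where the mRNA enters, had 0.05, 1.05, -0.34 and 1.08 after AAM and 0.65, -1.98, 0.01 and -0.52 after WPH, with WPH replicate 2 far below the others. Rpsa, also known as the laminin receptor precursor, had -0.08, 1.25, -1.08 and 0.90 and then 0.57, -1.60, 0.56 and -0.51 (-0.47, -1.86 to 0.96). Rps15 had 0.16, Rps15a -0.13 and Rps13, read by a dim probe set, 0.98 (-0.55 to 2.43). Without AAM replicate 3 these were -0.66, -1.13 and 2.63, and with median centring -0.49, -0.52 and -0.48. Rps6 was -1.57 without that array and -0.38 without AAM replicate 1, Rps3 -0.61 and Rps3a -0.35 without WPH replicate 2, and Rps24 had the other sign, 0.67, with the mean of its probe sets.

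Rpl3l, the muscle paralog, ran against the shared pattern, while the bright probe set of Rpl3 followed it (r = 0.762 with the mean of the other bright members). Rpl3 had z-scores of 1.96, 0.33, -1.18 and 0.03 after AAM and 0.47, -0.72, 0.05 and -0.95 after WPH. Rpl3l had -1.74, 0.54, 1.21 and -0.27 after AAM and -0.46, -0.80, 0.49 and 1.03 after WPH. On replicate 2 of both meals Rpl3l had the same sign as the mean of the bright members (0.36 after AAM and -0.66 after WPH). The array highest for Rpl3, AAM replicate 1, was thus the lowest for Rpl3l, and the array lowest for Rpl3, AAM replicate 3, was the highest for Rpl3l. Their correlation over the 8 arrays was -0.753, given as a description, and -0.451 without AAM replicate 1. Rpl3l was the only 1 of the 39 bright members with a negative correlation to the mean of the others (-0.61), and the member least like it was Rpl41 (r = -0.889), which encodes a very short protein. The members most like Rpl3l were Rpl28 (0.784), Rpl30 (0.600) and Rps4y2 (0.552), all dim. Neither gene passed the test between the meals, with -0.56 (-1.96 to 0.88) for Rpl3 and 0.12 (-1.27 to 1.5) for Rpl3l. Rpl3l and Rpl3 had among the widest ranges of the large subunit on the deposited scale, 7.71e-05 and 7.31e-05, with 5.07e-05 for Rpl12.

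**Figure D3:**
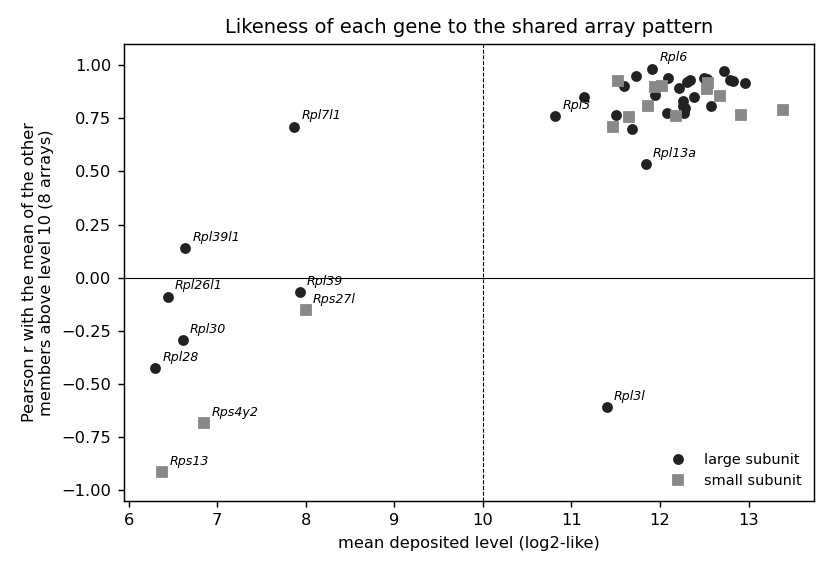
Pearson correlation over 8 arrays of each gene with the mean of the other members above level 10 (vertical axis) against its mean deposited level, log2-like (horizontal axis). Bright genes lie between 0.535 (Rpl13a) and 0.984 (Rpl6) except Rpl3l at -0.61, and the 9 dim genes spread from -0.914 (Rps13) to 0.711 (Rpl7l1).

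Rps27l, a p53-induced paralog of Rps27, had the largest difference of the 48 genes. Its z-scores were -1.21, -0.54, -1.13 and -0.21 after AAM and 1.15, 1.06, -0.30 and 1.18 after WPH. On 3 of 4 WPH arrays it lay above every AAM array, and WPH replicate 3 lay among the AAM arrays. On the deposited scale it differed by 1.71e-05 ± 4.8e-06 (SE, n = 4 for each meal), a standardized difference of 2.53 (95% interval 0.51 to 4.44), and limma's unadjusted p was 0.00838 with an adjusted p of 0.9998. Its exact two-sided permutation p was 0.0571. Without WPH replicate 3 the standardized difference was 5.08, still without a call. It was 0.48 after quantile normalization, and 0.23 once array medians were subtracted.

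Other paralogs had wide intervals. Rpl7l1, a relative of Rpl7, had -1.12 (-2.61 to 0.43) and was the only dim member near the shared pattern (r = 0.711). Both statements rest on its probe set of level 7.87. Its other probe set, at level 7.81, had a standardized difference of 0.03 (-1.36 to 1.41). The z-scores of that probe set were -0.19, -1.13, 0.46 and 0.80 after AAM and 0.93, -1.50, 1.18 and -0.55 after WPH, so it was not low on AAM replicate 3. Rpl26l1 had -1.23 (-2.73 to 0.35), where Rpl26 had -0.81 (-2.23 to 0.68). Rpl39l1 had -0.62 (-2.02 to 0.83), where Rpl39 had 0.83 (-0.66 to 2.26). Rpl22 had -0.43 (-1.82 to 1.0). Rps4y2 had the widest range of all members, 4.96e-04, with z-scores of 0.29, 0.10, 1.49 and -0.65 after AAM and -1.63, -0.60, -0.11 and 1.12 after WPH (-0.60, -2.0 to 0.85). The next widest range in the small subunit was that of Rps9 (5.87e-05), whose standardized difference was -0.21.

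Genes with several probe sets often gave opposite signs. Of 6 such genes, 5 had probe sets in both directions and Rpl14 alone had both lower after WPH. For Rpl7 the bright probe set had 0.29, 0.76, -1.37 and 1.71 after AAM and 0.42, -0.76, -0.85 and -0.20 after WPH, with -0.70 (-2.11 to 0.77). Its second probe set, at a level of 7.19, had -0.31, -1.26, -1.30 and -0.28 after AAM and 0.55, 1.45, 1.06 and 0.09 after WPH, with 2.71 (0.62 to 4.70, exact two-sided permutation p = 0.0286, the smallest possible). It was the 1 member probe set of 55 whose groups did not overlap, where 2.23% of all probe sets did not. Rps24 had -1.51 for its bright and 0.73 for its dim probe set, and Rpl3 had -0.56 and 0.13. Of the 3 probe sets of Rpsa, 2 were higher and 1 lower, all within 0.5 of 0, and all 3 were low on AAM replicate 3 and WPH replicate 2 (-0.94 or lower). Ribosomal protein genes have many processed pseudogenes and near-identical copies, and which of these a probe set reads was not tested.

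**Figure D4:**
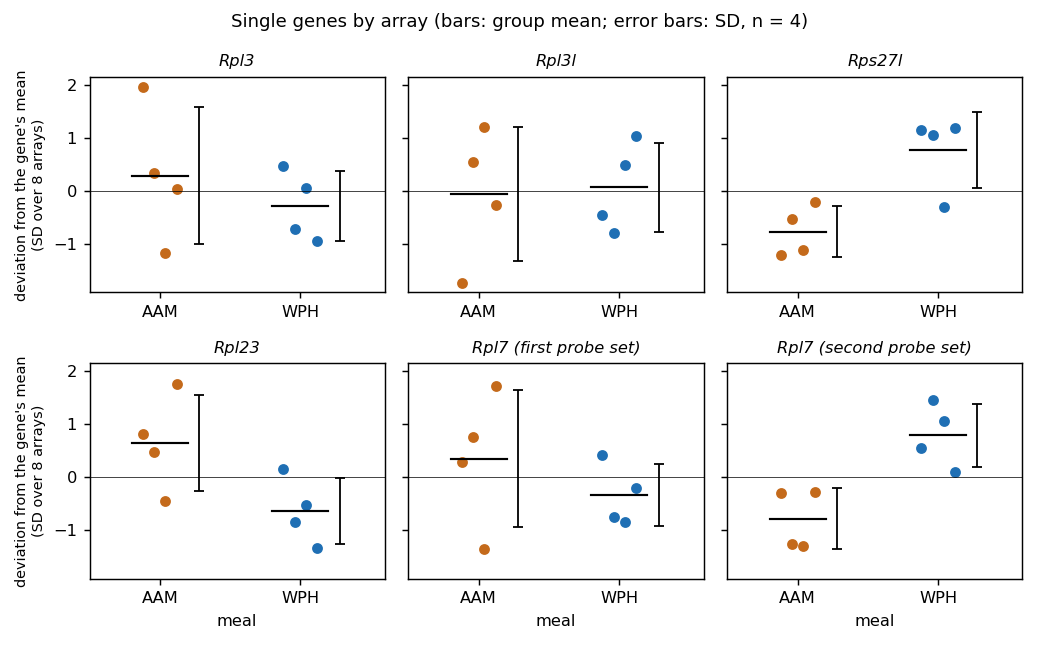
Values of 6 probe sets on each array, as the deviation from the probe set's mean in SDs over the 8 arrays, by meal, with the group mean (bar) and SD (error bar, n = 4). The second probe set of Rpl7 separates the meals, Rps27l does so apart from WPH replicate 3, and Rpl3, Rpl3l, Rpl23 and the first probe set of Rpl7 overlap.

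Other mRNAs that start with a TOP tract, fixed by symbol, shared the low value on AAM replicate 3 in their mean. Of 19 listed, 12 were measured, and 2 of the 12 lay above their own mean on that array. Among the elongation factor genes, Eef1b2, Eef1d and Eef1g had z-scores of -1.97, -2.14 and -1.52 there. Eef2 had -0.53 and Eef1a1 0.53. Mean z-scores of the 12 genes were 0.25, 0.39, -1.24 and 0.66 after AAM and 0.45, -0.46, 0.28 and -0.33 after WPH, with AAM replicate 3 the lowest array for 8 of the 12. Of these 12 genes 4 were higher and 8 lower after WPH, with a median of -0.20 and 0 at an unadjusted p below 0.05 by limma. The count higher was 7 without AAM replicate 4 or WPH replicate 4 and 1 with quantile normalization or with median centring. Values furthest from 0 were those of Eif4b, a cofactor of the helicase that unwinds mRNA (0.96), Nap1l1, a histone chaperone (0.74), and Hnrnpa1, an RNA-binding protein (-0.74).

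Ribosome assembly genes ran partly with the same arrays. All 22 listed were measured, with mean z-scores of 1.11, -0.20, -1.12 and 0.65 after AAM and 0.55, 0.38, -0.22 and -1.15 after WPH. Of them 6 were higher and 16 lower after WPH (median -0.20), but 15 were higher without AAM replicate 1, 12 without AAM replicate 4, 14 without WPH replicate 4, 3 without AAM replicate 3 and 2 with median centring. Aamp had -1.10, Eif6, which keeps the large subunit from joining too early, -0.92, and Bccip -0.91. Of 14 genes of growth signalling to TOP mRNAs, 13 were measured, 6 higher and 7 lower (median -0.14), with 3 higher without AAM replicate 3 or with median centring and 9 without AAM replicate 4 or with quantile normalization. Rheb, the activator of mTORC1, had -0.69, Rps6kb1, an S6 kinase gene, 0.64, and Mlst8, an mTOR partner, -0.57. None of these genes passed the threshold.

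Mitochondrial ribosomal protein genes, whose products translate the messages of the mitochondrial genome, had another order of arrays. The 73 measured genes had mean z-scores of -0.79, 0.23, 1.08 and 0.33 after AAM and -0.04, -0.29, 0.10 and -0.63 after WPH. AAM replicate 3, the lowest array for 20 of the 48 cytosolic genes, was the highest for 42 of these 73 (57.5%). Over all genes this array was the highest for 18.6% and the lowest for 18.6%. Of the 73 genes 22 were higher and 51 lower after WPH (median -0.50). Without AAM replicate 3, 32 were higher, against 9 without AAM replicate 1 and 5 with median centring. This difference between the families was not tested.

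**Figure D5:**
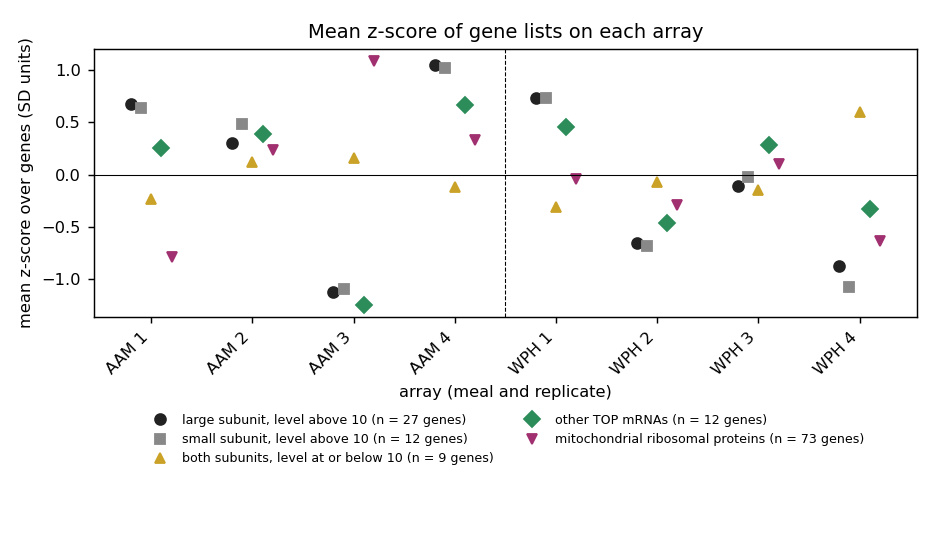
Mean z-score over the genes of 5 lists (vertical axis, SD units) on each array, AAM left and WPH right of the dashed line. The bright large and small subunit genes lie close together on all 8 arrays, the other TOP mRNAs share their low value on AAM replicate 3, and mitochondrial ribosomal protein genes are highest there (1.08).

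Markers of other cells differed between the same arrays. Macrophage and leukocyte markers (9 of 9 measured) had mean z-scores of 0.36, -0.05, 0.66 and -0.96 after AAM and -0.77, -0.02, 0.00077 and 0.78 after WPH. In this mean, AAM replicate 3 and WPH replicate 4, low for ribosomal proteins, were thus high, and AAM replicate 4 and WPH replicate 1 were low. Not every marker of the list followed its mean. AAM replicate 1, high for ribosomal proteins, was not low here (0.36), and WPH replicate 2, low for them, was not high (-0.02). Fibroblast markers (6 of 6 measured) ranged from -0.58 to 0.68 after AAM and from -1.21 to 1.38 after WPH, with WPH replicate 4 highest. Muscle fibre markers ranged from -0.53 to 0.43 and from -0.33 to 1.0, again with WPH replicate 4 highest. Acta1, of the smallest SD in that list (5.35e-09), had only z-scores of 0.94 or -0.94. Its part in the mean thus rests on a single step in the deposited values. What part these cell markers have in the ribosomal protein pattern was not tested. After WPH, 8 of 11 muscle fibre, 5 of 9 leukocyte, 4 of 6 fibroblast, 4 of 5 endothelium, 1 of 5 adipocyte, 2 of 2 satellite cell, 2 of 3 erythrocyte and 1 of 4 skin and epithelium markers measured were higher. Of 4 satellite cell markers listed, only 2 were measured. With limma 0 markers passed the threshold. At an unadjusted p below 0.05 there was 1, of the satellite cell list, where 482 of all 14217 genes were called.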

How the data were processed

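Total RNA (100 ng) was labelled with biotin and hybridised, 1 array per rat, per the labels' protocols. The authors' deposited values are expression levels on a log2-like scale, between 5.28 and 14.2. The submitters' processing notes name R 2.7.2, and how background was corrected, arrays normalized and probes summarised stays unknown, being not given in the sources used here, as do scale and centring. Array medians lay within 6.67e-05 of each other. From 31099 probe sets, 57 controls were left out. The platform annotation gave the symbols, and the IDs of 46 of the 48 members were found in a GRCr8 gene table, with 0 symbols changed.

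WPH was compared with AAM by limma 3.58.1 in R 4.3.3 (lmFit, eBayes, two-sided, prior df 0.549) over 31042 probe sets, adjusted by Benjamini-Hochberg, with 0.05 as the threshold. Intervals (95%) use a noncentral t with 6 degrees of freedom, computed in Python 3.11.15 with scipy 1.17.1. Exact permutation tests used the 35 splits of 8 arrays into 4 and 4. The labels call the samples biological replicates, and the 8 arrays limit the precision. No barrel or array batch is given. The procedure was tested on simulated data.

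Named were, per subunit, the 4 genes of highest and of lowest standardized difference and the 3 of widest range, genes fixed by role or as paralog pairs, and genes with several probe sets. From other lists at most 3 genes were named by size. Outside this rule, elongation factor genes were named for their values on AAM replicate 3, and Acta1 and Ckm as examples of muscle fibre markers. The members and lists were chosen with earlier results of these data known. The labels do not say that replicate numbers pair rats, so the numbers were not taken as pairs. Same-numbered arrays of both meals correlated by 0.167, 0.139, 0.067 and -0.078 in their deviations from the group means. Of the AAM arrays, 2 were most alike the WPH array of their own number. The alternatives are given at the end.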

Additional observations from a re-analysis of the deposited data

Results flagged for a closer look

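Dixon's ratio, the gap of an extreme array to its neighbour over the range of its meal's 4 arrays, was past its 95% critical value in 4 of 90 cases, where chance gives about 4.5. AAM replicate 3 was low for Rpl22 (ratio 0.866), Rplp0 (0.834) and Rps15a (0.843). WPH replicate 3 was low for Rps27l (0.924).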

How the results depend on the processing

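In all settings run, 0 member probe sets passed the threshold with limma, with the replicate block too, which gave 0 calls. The median standardized difference of the named genes was -0.43. In the other settings it lay between -0.98 (without AAM replicate 3) and 0.14 (quantile normalization, over the 8 named genes left). Array medians differ by more than the SD of most members, so subtracting them leaves 0 large and 1 small subunit genes higher after WPH, with 9.01% of all probe sets higher in place of 47.3%. Quantile normalization gives a probe set of constant rank the same value on all arrays, which left 11 of the 48 genes to fit. The large subunit's difference in mean z-score was then 0.32 over 6 genes, in place of -0.41 over 33. With the mean of all probe sets per gene, 5 small subunit genes were higher. For members above level 10, a bound chosen after seeing the data, the counts higher were 3 and 1. Leaving out each array in turn, the counts higher ranged from 3 to 13 for the large and from 2 to 6 for the small subunit, and the differences in mean z-score from -0.85 to -0.20 and from -0.64 to -0.12. Of 31 named genes, 7 changed sign with median centring and 6 without WPH replicate 4, the highest counts. With quantile normalization 2 of the 8 named genes left to fit did so. A signed root of the deviations called 51 of all probe sets but no member. The filter on dim probe sets, array weights, the trended prior and leaving out probe sets of shared sequence also called no member. No detection call was used, so how far dim probe sets lie above background is unknown.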
